A study of Mus musculus with 3 samples.

Results

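The 10 genes described here encode serum amyloids, orosomucoids and other proteins of the acute phase response: Saa1, Saa2, Saa3, Saa4, Orm1, Orm2, Orm3, Hp, Apcs and Fgl1. They were chosen by gene symbol, and the list was drawn up with their levels on the 3 arrays of the series already known. Their levels are therefore given as a description, with no test. Each of the 10 had 1 probe set among 25206 on the array, of which 23740 carried a gene symbol.

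The tissue was heart left ventricle from C57BL/6N males between 8 and 12 weeks of age, and gene expression was measured on 1 array for each of 3 groups. Mice of the Control group carried a vehicle pump (ammonium bicarbonate) and received saline. Those of the Iso group also carried a vehicle pump, and were given isoproterenol (an agonist of beta-adrenergic receptors, used to injure the heart) at 50 mg/kg per day into the peritoneum for 11 days. The Iso+Insl6 group received the same isoproterenol, while INSL6, a secreted peptide related to relaxin, was infused under the skin at 50 to 70 nmol/kg per day. Tissue was harvested at day 14, and 3 RNA samples were pooled for each array. Since a group has 1 array, no value below has an error between animals, no difference has a replicate check and no p-value is given. Precision is limited by this number of arrays, and the pooling leaves the spread between mice unknown.

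The acute phase response is the shift in plasma proteins that follows infection or tissue injury. Hepatocytes make most of these proteins under the control of interleukin-6, interleukin-1 and glucocorticoids, which act through the transcription factors STAT3, NF-kappa-B and the C/EBP family. Positive acute phase proteins such as serum amyloid A, orosomucoid and haptoglobin gain in plasma, while negative ones such as albumin and transthyretin decline. Heart muscle is not a main source of these proteins, although fat, macrophages and epithelia make some of them.

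Levels are the deposited log2 values, in which a difference of 1 is a 2-fold difference. The median of all values, 4.16, served as the background level. Heart muscle RNA was present at high levels: all 10 heart muscle markers, among them Myh6, Tnnt2 and Pln, lay above background on every array. None differed 1.5-fold in either design comparison. Few of all genes did, with 1.03% that much lower on Iso than on Control and 1.49% higher on Iso+Insl6 than on Iso. Whether the tissue was left ventricle was not tested with these markers. Some markers of other organs also lay above background, as given below. Nppa, one of the 10, which encodes atrial natriuretic peptide, was higher by 0.73 on Iso+Insl6 than on Control (11.72 against 10.99). Of the 10 acute phase genes, 3 lay above background on all arrays (Saa2, Orm1 and Hp), 3 on both Control and Iso+Insl6 but not on Iso (Saa1, Saa4 and Orm2), and Fgl1 on Iso+Insl6 alone. Saa3, Orm3 and Apcs lay below background on every array. In whole tissue, fewer cells of a type and less RNA per cell cannot be told apart.

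**Figure D1:**
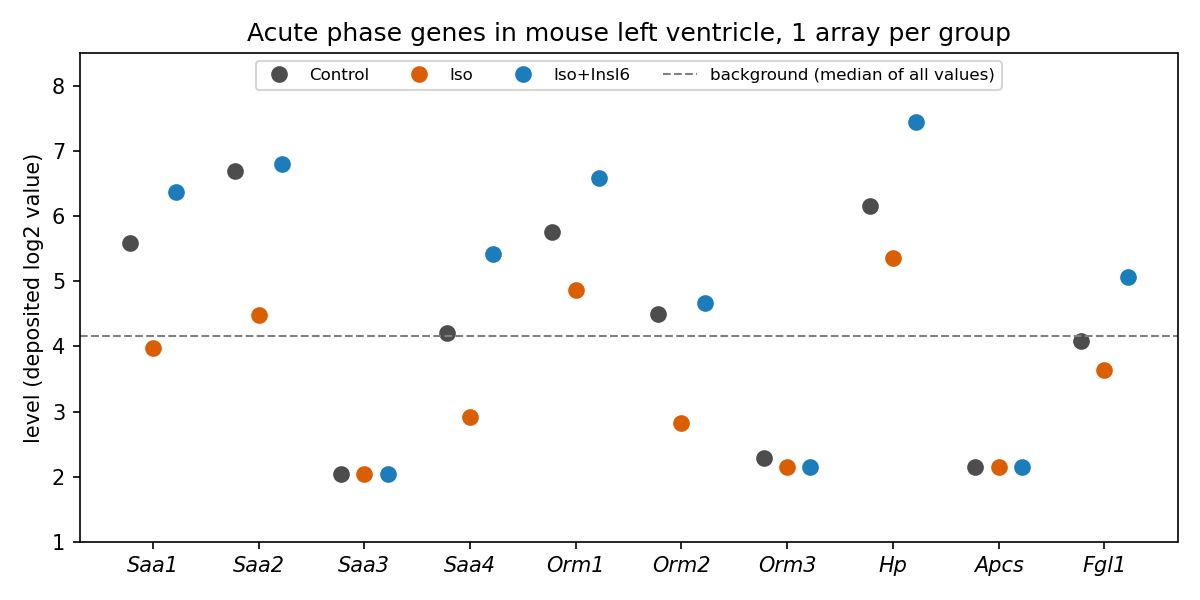
Level of each of the 10 genes (deposited log2 value, y axis), with 1 point per array for Control, Iso and Iso+Insl6 and background at 4.16 as a dashed line. Saa1, Saa2, Saa4, Orm1, Orm2, Hp and Fgl1 have their lowest point on Iso and their highest on Iso+Insl6, while Saa3, Orm3 and Apcs stay between 2.04 and 2.28.

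Serum amyloid A proteins travel on high-density lipoprotein, and Saa1 and Saa2 are the forms that liver makes in large amounts in an acute phase. Saa2 stood at 6.69 on Control, 4.48 on Iso and 6.79 on Iso+Insl6. All 3 values lie above background, so its 4.63-fold lower level on Iso than on Control and 4.96-fold higher level on Iso+Insl6 than on Iso are folds between measured levels. The Control and Iso+Insl6 arrays differed by 0.10. Saa1 had levels of 5.59, 3.98 and 6.37 in the same order of arrays. Its Iso level lies below background, which makes it at least 2.69-fold lower on Iso than on Control and at least 4.63-fold higher on Iso+Insl6 than on Iso. Unlike Saa2, it stood 1.72-fold higher on Iso+Insl6 than on Control.

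Saa4 encodes the constitutive serum amyloid A of plasma, which in textbook accounts hardly responds to inflammation. Its level was 4.20 on Control, 2.91 on Iso and 5.42 on Iso+Insl6. The listed difference between Iso and Control was -1.29, but the Control level lies just above background and the bound is only 1.03-fold. Against Iso, the Iso+Insl6 array was at least 2.39-fold higher, and against Control it was 2.33-fold higher. Saa3, the form made by macrophages and fat outside the liver, was listed at 2.04 on all 3 arrays. The forms above background on any array were thus Saa1, Saa2 and Saa4. Which tissue or cells made this RNA was not tested.

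RefSeq's gene table (assembly GRCm38.p6) places Saa3, Saa4, Saa1 and Saa2 in that order as neighbouring protein-coding genes on chromosome 7. It also lists Saa2 as an older name of Saa1 and Saa1 as an older name of Saa2. The symbols used here follow the Entrez gene numbers of the probe sets, 20208 for Saa1 and 20209 for Saa2. The proteins and transcripts of this pair are near-identical copies, and whether the probes tell them apart was not tested, so the separate values of Saa1 and Saa2 are uncertain.

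The likeness of Saa1 and Saa2 extends to their promoters, which are shown because both genes were low on the Iso array. RefSeq's promoter table (GRCm38.p6) held 7 of the 10 genes: Saa1, Saa2, Saa3, Saa4, Orm2, Orm3 and Apcs. The 250 bases before the start site are printed 5′ to 3′ on the gene's own strand, with capitals marking matches to the C/EBP motif TTGCNNAA on either strand. The Saa1 window lies at chr7:46742981-46743230 on the minus strand and the Saa2 window at chr7:46751583-46751832 on the plus strand.
Saa1: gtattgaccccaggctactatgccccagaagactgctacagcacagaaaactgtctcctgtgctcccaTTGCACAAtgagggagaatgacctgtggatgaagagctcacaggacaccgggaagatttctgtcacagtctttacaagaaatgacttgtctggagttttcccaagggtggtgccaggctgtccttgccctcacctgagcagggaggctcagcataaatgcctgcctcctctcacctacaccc
Saa2: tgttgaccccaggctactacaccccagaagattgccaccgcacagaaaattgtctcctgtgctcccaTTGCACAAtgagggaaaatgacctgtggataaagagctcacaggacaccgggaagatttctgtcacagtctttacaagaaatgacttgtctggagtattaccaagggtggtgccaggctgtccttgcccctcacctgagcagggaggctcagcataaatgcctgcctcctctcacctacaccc
After global alignment 238 positions were identical and 11 mismatched, with 2 gap columns, an identity of 94.8%. The 19 pairs of promoters other than this one and Orm2 with Orm3 were between 46.4% and 55.1% identical.

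Orosomucoids, also called alpha-1-acid glycoproteins, are plasma carriers of small basic and lipophilic molecules. Orm1, the main form in mouse plasma, stood at 5.76 on Control, 4.86 on Iso and 6.59 on Iso+Insl6. All of these lie above background, and the level was 1.87-fold lower on Iso than on Control, 3.32-fold higher on Iso+Insl6 than on Iso, and 1.78-fold higher on Iso+Insl6 than on Control. Orm2 had levels of 4.49, 2.83 and 4.66. It was close to background where it was detected, so its listed differences of -1.66 and 1.83 translate into bounds of only 1.26-fold and 1.41-fold. Orm3 was at 2.28 on Control and 2.15 on the other arrays, below background throughout.

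The orosomucoid genes are neighbours on chromosome 4 in the order Orm1, Orm3 and Orm2, and close paralogs whose probes may not separate them. The promoters of Orm2 and Orm3 are shown because the sequences are alike while only Orm2 lay above background, on Control and Iso+Insl6. Orm3 was not measured above background, so the patterns of these genes cannot be compared. Their windows lie on the plus strand at chr4:63362199-63362448 for Orm2 and chr4:63355908-63356157 for Orm3, with the same marking.
Orm2: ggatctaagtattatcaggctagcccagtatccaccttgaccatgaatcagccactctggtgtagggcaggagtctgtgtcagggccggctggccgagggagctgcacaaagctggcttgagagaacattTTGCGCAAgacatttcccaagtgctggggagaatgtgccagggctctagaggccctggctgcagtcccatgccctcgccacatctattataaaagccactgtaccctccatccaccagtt
Orm3: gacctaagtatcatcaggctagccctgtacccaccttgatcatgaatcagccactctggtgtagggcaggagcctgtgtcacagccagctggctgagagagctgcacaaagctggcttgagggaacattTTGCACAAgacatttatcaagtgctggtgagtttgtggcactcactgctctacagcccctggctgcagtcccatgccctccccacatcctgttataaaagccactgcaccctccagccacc
The windows were 85.9% identical, with 219 identical and 26 mismatched positions and 10 gap columns. Each holds 1 match to the C/EBP motif at nearly the same distance from the start site, first base at -120 in Orm2 and -121 in Orm3.

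Across the 7 promoter windows, the 8-letter C/EBP motif TTGCNNAA occurred in 6, against 9.56% of 32851 promoters of the same length in the table. It was added after these sequences had been seen, so the count is a description. The windows of Saa1 and Saa2 are alike, as are those of Orm2 and Orm3, so the 6 are not separate observations. Saa1 and Saa2 matched with their first base at -182 and -183, Saa3 at -99 and Saa4 at -245 and -52. Matches thus occur in genes that were low on Iso as well as in Saa3 and Orm3, which were below background. The STAT motif TTCNNNGAA was found in 1 of the 7 windows, that of Apcs, against 7.02% of all promoters. The longer C/EBP motif TTGCNNCAA (1.74% of all promoters), the NF-kappa-B consensus (7.25%) and the glucocorticoid receptor consensus (0.167%) had no match in these windows. Both strands were searched, and no match of one motif overlapped a match of another.

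**Figure D2:**
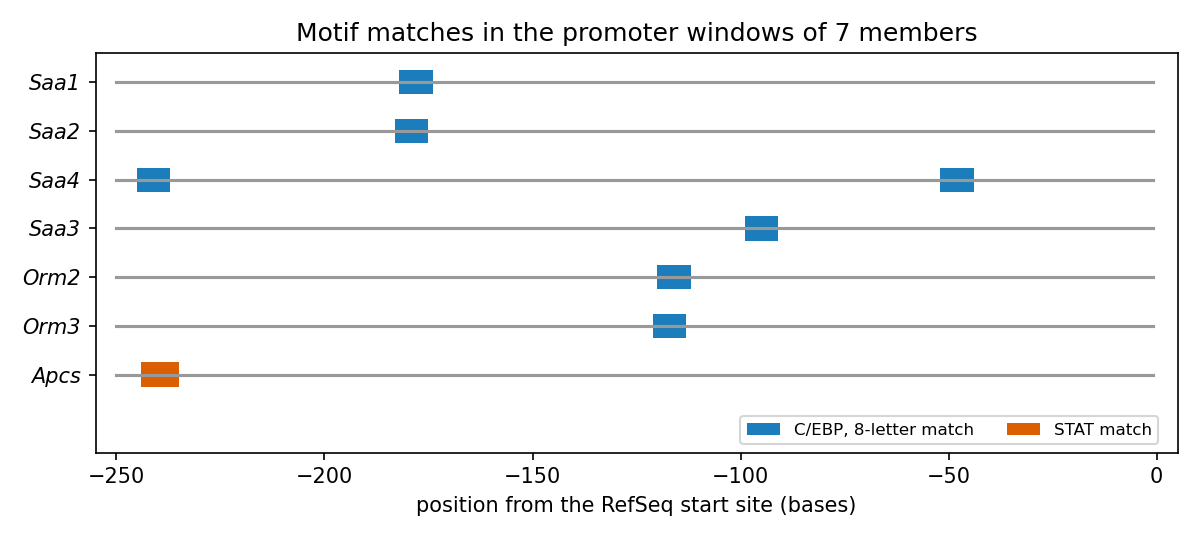
Position of motif matches (coloured blocks) from the RefSeq start site (x axis, bases) in the 250-base promoter windows of 7 genes (rows). The C/EBP match of Saa1 and Saa2 sits at -182 and -183, that of Orm2 and Orm3 at -120 and -121, and Apcs has a STAT match alone.

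Haptoglobin, Hp, binds free haemoglobin and delivers it to the receptor CD163 on macrophages. It stood at 6.15 on Control, 5.35 on Iso and 7.44 on Iso+Insl6, above background on each. The level was 1.74-fold lower on Iso than on Control and 4.26-fold higher on Iso+Insl6 than on Iso. Of the 10 genes it was the furthest above Control on Iso+Insl6, by 2.45-fold. Fgl1, a fibrinogen-like protein of hepatocytes that is also a ligand of the T cell receptor LAG3, had levels of 4.08, 3.63 and 5.07. Only its Iso+Insl6 level lies above background, where it was at least 1.88-fold higher than on either other array. Apcs encodes serum amyloid P, the main pentraxin of the mouse acute phase, and was listed at 2.15 on all 3 arrays.

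A value repeated across arrays was common in these data and is no mark of a stable gene. Of 11227 genes below background on all arrays, 59.7% had the same value on all 3, as Saa3 and Apcs did. Among 12513 genes at or above background on any array this share was 42.7%.

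Iso against Control, which the design text names first, addresses what isoproterenol changes in the ventricle. Here 6 of the 10 genes reached background on the higher array, and the listed values of these 6 (Saa1, Saa2, Saa4, Orm1, Orm2 and Hp) were past 1.5-fold, lower on Iso. Over all 12415 genes at or above background on either array, 1.03% were that much lower by their listed values. Against background, 4 of the 6 were at least 1.5-fold lower, and the bounds of Saa4 and Orm2 fell short of it. The share is printed for scale only, since the genes were listed with these levels known, and Saa1, Saa4 and Orm2 passed the level filter through Control alone. Differences can be ordered only where both levels were measured, which held for 12149 genes. Listed from the lowest of them, Saa2 (-2.21) was in place 2, Orm1 (-0.90) in place 22 and Hp (-0.80) in place 33. The median listed difference over the 10 genes was -0.85, against 0.00 over all 23740 genes. That 0.00 is fixed by repeated values, since 61.1% of these genes had the same value on both arrays.

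Iso+Insl6 against Iso, the other comparison of the design text, addresses what INSL6 changes in the treated ventricle. With the same filter 7 of the 10 genes were measured on the higher array, and the listed values of these 7 were past 1.5-fold, higher on Iso+Insl6, as were 1.49% of 12457 genes. Saa1, Saa4, Orm2 and Fgl1 passed the filter through Iso+Insl6 alone. Against background 6 of the 7 were at least 1.5-fold higher, and Orm2 was not. Among the 12115 genes measured on both arrays, listed from the highest difference, Saa2 (2.31) was in place 15, Hp (2.09) in place 26 and Orm1 (1.73) in place 37. The median listed difference over the 10 genes was 1.78, against 0.00 over all genes. Repeated values fix that 0.00 as well, with 60.5% of all genes identical on Iso+Insl6 and Iso. Both comparisons contain the Iso array, so one low or high value there enters both.

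**Figure D3:**
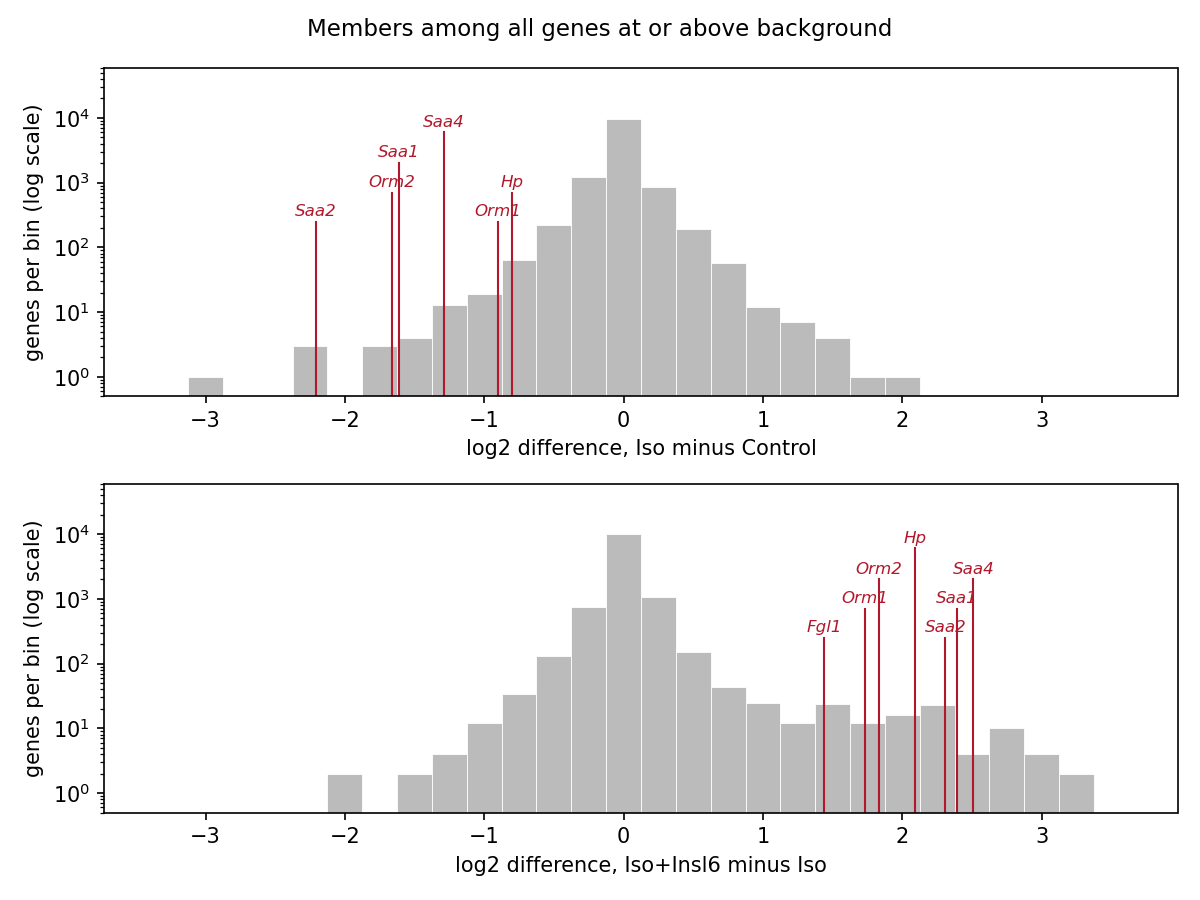
Number of genes per bin of log2 difference (grey bars, log scale) among genes at or above background, for Iso minus Control (top) and Iso+Insl6 minus Iso (bottom), with the acute phase genes that passed the level filter as red lines. The lines lie between -2.21 and -0.80 in the top panel and between 1.44 and 2.51 in the bottom panel, in the outer parts of both distributions. The places of Saa1, Saa4, Orm2 and Fgl1 rest on an Iso level below background and have no exact order.

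Iso+Insl6 against Control is not a comparison that the design names, and it shares an array with each of the others. Of the 10 genes 7 passed the level filter, and Saa1, Saa4, Orm1, Hp and Fgl1 were at least 1.5-fold higher on Iso+Insl6, where 1.96% of 12420 genes were. Saa2 (0.10) and Orm2 (0.17) were not. At a 2-fold threshold the count was 2, Saa4 and Hp, where 1.01% of the genes were that much higher. It was also 2 (Orm1 and Hp, of 3 genes) when the level filter was set on the Iso array, which this comparison does not use, against 1.4% of 12300 genes.

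Counts of other gene lists below are by listed values too. Over all genes that passed the level filter, 0.846% were 1.5-fold higher and 1.03% lower on Iso than on Control. For Iso+Insl6 against Iso these shares were 1.49% and 0.506%. At such shares a short list with none past 1.5-fold is no result about that list. Other positive acute phase proteins were split between the arrays in the first comparison. Of 32 measured, 23 passed the level filter, 5 were at least 1.5-fold lower on Iso than on Control and 3 at least that much higher, and the median over the 32 was -0.05. The share of all genes that much higher was 0.846%. Lower were the fibrinogen chains Fgg (-0.90), Fgb (-0.71) and Fga (-0.66), which form clots, the heme carrier hemopexin, Hpx (-0.82), and the protease inhibitor Serpina1e (-1.11). Higher were the metallothionein Mt2 (1.07), the protease inhibitor Serpina3n (0.97) and hepcidin, Hamp (0.59), the hormone that limits iron release. Lipocalin, Lcn2, had levels of 6.76, 6.40 and 7.21 on Control, Iso and Iso+Insl6, and complement C3 had 8.44, 8.12 and 8.97. Ceruloplasmin, Cp, stood at 8.98, 8.43 and 8.48, a difference of 0.05 between Iso+Insl6 and Iso.

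On Iso+Insl6 against Iso, 18 of 27 positive acute phase proteins that passed the filter were past 1.5-fold, higher on Iso+Insl6, where 1.49% of all genes were, and 16 of them were so against background. The median over the 32 was 0.85, and 0 were that much lower, where 0.506% of all genes were. The inhibitors Serpina1d (3.06), Serpina1e (3.00) and Serpina1c (2.79) led them, followed by Fgg (2.36), hepcidin (2.35), Serpina3k (2.32) and Serpina1b (2.16). Whether the probes tell the Serpina1 genes apart was not tested, so they may not count as separate genes. Crp, the pentraxin beside Apcs on chromosome 1, was at 2.94 on Control and Iso and 4.47 on Iso+Insl6. Lbp, which hands bacterial lipopolysaccharide to CD14, was at 5.64, 5.63 and 5.68, and Cd14 at 4.66, 4.38 and 4.38.

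Negative acute phase proteins stood near their Control levels on Iso and above them on Iso+Insl6. None of the 9 that passed the filter differed 1.5-fold between Control and Iso, and their median over 12 was 0.00. Over all genes only 1.03% were that much lower on Iso and 0.846% higher. Of the 12, 5 had the same value on both arrays, which is no mark of a stable gene. Albumin, Alb, stood at 8.78 and 8.97, and transthyretin, Ttr, at 6.41 on both. The apolipoprotein Apoa1, which serum amyloid A displaces from high-density lipoprotein, was at 5.29 on both. Yet 10 of 12 were at least 1.5-fold higher on Iso+Insl6 than on Iso and none lower, against 1.49% and 0.506% of all genes, and the median was 2.00. Igfals (0.34) and F12 (0.50) differed by less. Albumin reached 11.12 there, Apoa2 8.89 and transferrin, Trf, 8.64. Between Control and Iso the 12 ran from -0.32 to 0.40.

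**Figure D4:**
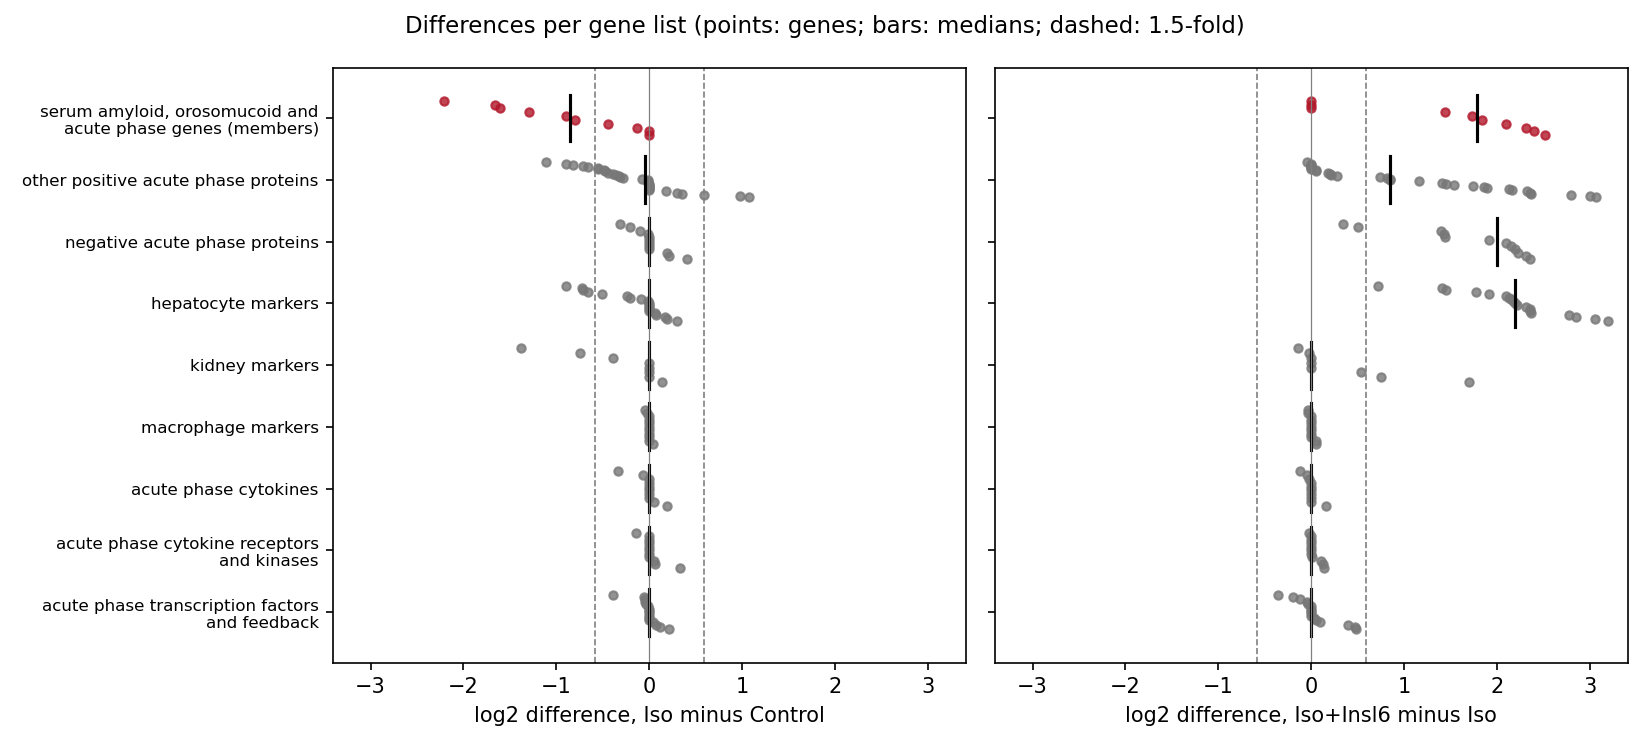
Log2 difference of each gene (points) in 9 gene lists (rows), for Iso minus Control (left) and Iso+Insl6 minus Iso (right), with list medians as black bars and 1.5-fold as dashed lines. In the left panel the 10 acute phase genes have a median of -0.85 while negative acute phase proteins and hepatocyte markers have 0.00, and in the right panel the medians are 1.78, 2.00 and 2.19. Repeated values enter both medians of 0.00, since 5 of 12 negative acute phase proteins and 5 of 19 hepatocyte markers were identical on Control and Iso. Of the 12 negative acute phase proteins, 6 are also hepatocyte markers, so these lists are not separate.

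Markers of hepatocytes moved with the second comparison. Of 20 listed, 19 were measured and none lay below background on all arrays. The list shares 6 genes with the negative acute phase proteins: Ahsg, Alb, Apoa1, Apoa2, Apoc3 and Ttr. All 19 were at least 1.5-fold higher on Iso+Insl6 than on Iso, against 1.49% of all genes. Their median was 2.19, led by Cyp2e1 (3.19) and Tat (3.05). Their mean log2 level was 5.52 on Control, 5.34 on Iso and 7.52 on Iso+Insl6, and the log2 of their summed linear level was 10.35, 10.28 and 12.54. The same sum over the 10 acute phase genes was 8.44, 7.21 and 9.17. Between Control and Iso, 4 of 17 hepatocyte markers that passed the filter were at least 1.5-fold lower (1.03% of all genes were), namely Fga, Fgb, Fgg and the vitamin D carrier Gc (-0.72). By any size, 9 of the 19 were lower on Iso than on Control, 5 higher and 5 identical. Apart from the 4 genes that the list of positive acute phase proteins also holds, 15 markers had a median of 0.00 between Control and Iso and ran from -0.72 to 0.19. The part of these cells in the levels of the acute phase genes was not tested. Kupffer cell and sinusoid markers had no member at 1.5-fold in either comparison, and 6 of 8, among them Clec4f and Vsig4, lay below background on every array.

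Of the kidney markers, Kap, the androgen-regulated protein of the proximal tubule, had levels of 6.05, 4.67 and 6.36 on Control, Iso and Iso+Insl6. It differed by -1.38 in the first comparison and 1.69 in the second. Slc34a1, the phosphate transporter of the same tubule, stood at 4.42, 4.03 and 4.56. The other 6 of the 8 kidney markers lay below background on every array, Umod among them at 3.96, 3.21 and 3.96. The log2 of the summed linear level of the list was 7.25 on Control, 6.66 on Iso and 7.41 on Iso+Insl6, and its part in the result was not tested. Among the lung markers, Scgb1a1 alone reached 1.5-fold, at 5.90, 5.96 and 4.06.

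Among markers of macrophages, neutrophils and fat cells, none differed 1.5-fold in either design comparison. Over all genes 1.03% were that much lower on Iso than on Control, and 1.49% higher on Iso+Insl6 than on Iso. Lists this short would mostly hold none. Markers below background cannot show a difference, and the part of these cells in the acute phase levels was not tested. All 11 macrophage markers measured lay above background, and their differences ran from -0.05 to 0.05 in both design comparisons. All 12 neutrophil markers lay below background on every array, S100a8 at 2.36 on each. Of 10 adipocyte markers, Fabp4 and Lipe were above background, with Fabp4 at 10.44, 10.51 and 10.40 and Lipe at 6.25, 5.83 and 6.12. Adipoq, Lep and Plin1, which define fat cells, were below it on every array.

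The cytokines that call for an acute phase were hardly detected in this tissue. Of 10 measured, 8 lay below background on all arrays, with Il6 at 1.43 and Tnf at 3.67 on each, and Il1b at 3.45 on Control and 3.11 on the others. Cardiotrophin, Ctf1, a cytokine of the interleukin-6 family made by heart muscle, stood at 5.94, 5.87 and 5.84, and Clcf1 at 4.40, 4.59 and 4.75. Their receptors and kinases were all above background and none of 11 differed 1.5-fold in any comparison. Over all genes 1.03% were that much lower on Iso than on Control, and 1.49% higher on Iso+Insl6 than on Iso. None of 11 is therefore no result about these genes. The shared receptor Il6st was at 8.96, 9.02 and 8.99, Jak1 at 9.25, 9.30 and 9.30, and Jak2, the furthest apart, at 6.85, 7.18 and 7.30. RNA levels in the ventricle do not show the cytokine supply from blood.

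Among 16 transcription factors and feedback genes, none differed 1.5-fold in either design comparison. Over all genes 1.03% were that much lower and 0.846% higher on Iso than on Control. On Iso+Insl6 against Iso 1.49% were higher and 0.506% lower. A list of 16 would mostly hold none at such shares, so the count is no result about these genes. Stat3, which carries the interleukin-6 signal, stood at 8.58, 8.58 and 8.54. Its feedback inhibitor Socs3, an interleukin-6 target, was at 4.42 on Control, 4.03 on Iso and 3.98 on Iso+Insl6. The values on Iso and Iso+Insl6 lie below background. Cebpb, an activator of Saa and Orm genes, stood at 4.71, 4.92 and 5.40. Its difference of 0.69 between Iso+Insl6 and Control was the only one past 1.5-fold there, of 13 genes that passed the level filter. Over all genes 1.96% were that much higher. Cebpd had 4.01, 4.05 and 4.44, the glucocorticoid receptor Nr3c1 8.13, 8.24 and 8.12, and the NF-kappa-B subunit Rela 7.58, 7.53 and 7.58. Nfkbia, an NF-kappa-B target, was at 7.04, 7.02 and 7.11.

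Most receptors and binding partners of the acute phase proteins differed little. Of 20 measured, 17 passed the level filter, and none reached 1.5-fold between Control and Iso. Over all genes only 1.03% were that much lower on Iso and 0.846% higher, so none of 17 is no result about them. On Iso+Insl6 against Iso 2 of the 17 were that much higher, where 1.49% of all genes were: the apolipoproteins Apoa1 (2.19) and Apoe (0.68). Apoa1 is also on the lists of negative acute phase proteins and hepatocyte markers. Scarb1, which takes up high-density lipoprotein and serum amyloid A, stood at 6.76, 6.98 and 7.15. Cd163, the receptor of haptoglobin, was at 5.45, 5.49 and 5.45. The scavenger receptor Cd36 had 11.12, 11.08 and 11.07, and Tlr2, a serum amyloid receptor, 4.79 on each. Fpr2, another serum amyloid receptor, and Lag3, the receptor of FGL1, lay below background on every array.

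Genes most like each acute phase gene were sought among 11573 others by the distance between their pairs of differences, Iso minus Control and Iso+Insl6 minus Iso, over the 3 arrays. Distances are on the log2 scale of the listed values, with 0 for an equal pair. Where a level lies below background the distance rests on a level that was not measured, and no distance is given. The nearest to Hp were the liver class I gene H2-Q10 and the cytochrome Cyp2j5, both below background on Iso, and then the fibrinogen chain Fgb (distance 0.098), measured on all 3 arrays. Hemopexin, Hpx, which carries heme as haptoglobin carries haemoglobin, was nearest to Orm1 (0.179), at 6.15, 5.33 and 7.22 on Control, Iso and Iso+Insl6. Among those nearest to Fgl1, which was measured on Iso+Insl6 alone, were complement factor I, Cfi, and complement C5, listed as Hc.

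Saa4 and Saa1 were nearest to Slc27a2, a fatty acid transporter and acyl-CoA synthetase of liver and kidney, at 5.33, 4.18 and 6.89. Fgg was second for both. Orm2 lay nearest to Kap, and so did Saa2, at a distance of 1.036 with both measured on all arrays. The tissue kallikrein Klk1 was among the 5 nearest to Saa1, Saa2 and Saa4, at 3.11, 2.22 and 4.49, of which only the Iso+Insl6 level lies above background. Acnat1 was among those of Saa1 and Saa4, and Keg1, named as a kidney expressed gene, among those of Orm1 and Orm2. Others among the 5 nearest were Serpina1e for Saa2, the carbonic anhydrase Car3 for Saa4, Ugt3a2 for Orm1 and Hp, the amino acid transporter Slc38a4 for Orm1, the glycolytic enzyme Pgam1 for Orm2, and the amino acid degrading enzymes Hgd and Aass for Fgl1.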

How the data were processed

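Each of the 3 groups had 1 array. The authors deposited log2 values, and the submitters' processing notes name RMA and affy 1.36.1. Settings, array design, build and probe annotation are not given in the sources used here. Array background compresses differences of dim genes, and the pool of 3 RNA samples on each array hides the spread between mice.

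Probe sets were named by Entrez number from RefSeq's gene table (GRCm38.p6), which matched 23740 of 25206. Platform symbols were equal for all 10 acute phase genes. Symbols, not coordinates, link probe sets to promoters. No protein table was used here, so protein identities are not given.

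Differences were taken between log2 values. Genes were called by the size of the listed difference, at least 1.5-fold (log2 0.585), where the higher array was at or above the background of 4.16. A fold against a lower level below background is a bound against 4.16. The counting step was tested on simulated data with differences planted only in genes well above background. That test checks the counting alone and does not cover genes near background or the true error of these arrays. Named genes were every acute phase gene, genes of 14 context lists at 1.5-fold or among the 4 highest of their list, and the 5 nearest genes per acute phase gene at 1.5-fold; other list genes were chosen after their values were seen, and some that the rule takes are given only in counts or not reported here. Members and lists were chosen with earlier results of these data known. Alternatives were other normalizations (limma 3.58.1), thresholds and level filters. Promoters were aligned globally with Biopython 1.88. The 8-letter C/EBP motif replaced a planned 9-letter form that lacks the usual spacing, and was chosen after seeing the data.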

Additional observations from a re-analysis of the deposited data

How the results depend on the processing

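With cyclic loess, quantile normalization, or each array centred on the median of genes above background, all 90 recomputed differences of the 10 genes stayed on their side of 1.5-fold, and the largest move was 0.04 on the log2 scale. These values were already normalized when deposited, so such steps change little. By listed values, the 6 genes lower on Iso than on Control became 4 of 6 at a 2-fold threshold and 4 of 4 at a background of 5. The count stayed at 6 with no level filter and with the level filter on the array not compared. That last filter was added after seeing the data. The 7 higher on Iso+Insl6 than on Iso stayed 7 at 2-fold and with no level filter. They became 6 at a background of 5 and 6 with the filter on the array not compared. Shares of all genes at these settings are not reported here. For Iso+Insl6 against Control the count of 5 became 2 at a 2-fold threshold and 2 with the level filter on the Iso array, where fewer genes pass. No paired analysis was possible because each group has 1 array. For the same reason no array could be left out. Signal over background limits Saa1, Saa4, Orm2 and Fgl1, whose folds against the Iso array are bounds where given, and Saa3, Orm3 and Apcs, for which no fold can be given. The fold of Fgl1 between Iso+Insl6 and Control is a bound as well.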
